A study of Mus musculus with 6 samples.

Results

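The heat shock proteins and their DnaJ co-chaperones were followed from young to old bone marrow in 72 genes, out of 20018 genes with a symbol on the array. A gene was included when a non-control probe carried a RefSeq transcript accession of a gene whose symbol starts with Hspa, Hspb, Hspd, Hspe, Hsph, Hsp90, Dnaja, Dnajb or Dnajc. These 72 genes had 99 probes, and each gene was represented by its probe with the highest mean signal over the 6 arrays. The rule works on symbols, so it also took in Hspb11, a subunit of the intraflagellar transport machinery, Hspbp1, a nucleotide exchange factor of Hsp70, and Hspbap1, which is named for its binding to a small heat shock protein.

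Total RNA was measured on 6 Agilent 1-colour arrays, each hybridised with the RNA of 1 sample. The young group was 3 samples from C57BL/6 mice aged 3 months and the old group was 3 samples from C57BL/6 mice aged 24 months. No genetic change or treatment is recorded for either group. The samples were labelled and sorted bone marrow cells, which the labels call mesenchymal stem cells of the bone marrow. The labels do not say which markers defined the sort. Whether each sample was a separate mouse is not stated either, so a p-value below reflects only the variation among the samples themselves, and that variation may be technical.

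The labelled cell type was set against its markers. Of 14 mesenchymal stroma markers, 6 (Lepr, Cxcl12, Nes, Eng, Thy1 and Ly6a) were well above background on all 6 arrays. Another 6 (Pdgfra, Pdgfrb, Prrx1, Twist1, Foxc1 and Grem1) were well above background on none. The leukocyte, neutrophil and erythroid lists were measured on all 6 arrays for 10 of 10, 13 of 13 and 10 of 10 genes on the array. For T cells, plasma cells and B cells the counts were 6 of 6, 5 of 6 and 8 of 12. They were 5 of 7 for monocytes and macrophages, 3 of 9 for osteoblasts and 3 of 6 for endothelium. Testis germ cells had 2 of 6 and muscle 1 of 6. Old samples gave dimmer arrays, with a 75th percentile of processed intensity of 206 to 285 against 277 to 349 in the young samples, and 50.9% to 53.4% of probes were well above background against 55.2% to 60.0%. The young arrays lay in row 1 of the slide and the old arrays in row 2, so slide row and age cannot be told apart. Signals below are log2 values relative to the 75th percentile of the same array, which is 0 on this scale.

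Heat shock proteins are molecular chaperones. Hsp70 proteins bind unfolded segments of other proteins in a cycle driven by ATP. DnaJ proteins, also called J proteins, deliver clients to Hsp70 and trigger ATP hydrolysis, and nucleotide exchange factors such as the Hsp110 proteins reset the cycle. Hsp90 acts later on partly folded clients such as kinases and steroid receptors, the mitochondrial chaperonin of Hspd1 and Hspe1 encloses its clients, and small heat shock proteins hold unfolded proteins without ATP. Heat and other protein stress raise many of these genes through heat shock factor 1 (Hsf1), which binds repeats of nGAAn in their promoters, whereas misfolding in the endoplasmic reticulum (ER) raises the ER chaperones through the ER stress response element. In ageing tissues the ability to mount the heat shock response is widely described as declining.

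Both elements can be read in promoters of the genes whose values are described below. The promoters of Hspa1a, the stress-inducible Hsp70, and Hspb1, the small heat shock protein Hsp27, are shown because their signals stood apart on the same array. That of Hsph1, an Hsp110 protein, is shown because its signal varied widely among the old samples. Those of Hspa5, Hsp90b1 and Dnajc3 are shown because they were the only members with the ER stress element among the promoters searched. Sequences are from RefSeq on build GRCm38.p6, run from 250 bases before the start site to 50 bases after it, and are written 5′ to 3′ on the strand of the gene. Capitals mark the match, which is GAANNTTC in Hspa1a and Hspb1, GAANNTTCNNGAA in Hsph1, here on the reverse strand, and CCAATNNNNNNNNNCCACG in the others, where the second match in Hsp90b1 is on the reverse strand too.
Hspa1a, chr17:34972107-34972406, minus strand: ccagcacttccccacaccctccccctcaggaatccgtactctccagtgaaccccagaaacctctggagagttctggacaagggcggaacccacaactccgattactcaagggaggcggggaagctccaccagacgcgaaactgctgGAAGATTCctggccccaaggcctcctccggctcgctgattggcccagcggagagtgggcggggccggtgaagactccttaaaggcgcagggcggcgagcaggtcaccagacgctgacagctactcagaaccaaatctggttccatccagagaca
Hspb1, chr5:135887669-135887968, plus strand: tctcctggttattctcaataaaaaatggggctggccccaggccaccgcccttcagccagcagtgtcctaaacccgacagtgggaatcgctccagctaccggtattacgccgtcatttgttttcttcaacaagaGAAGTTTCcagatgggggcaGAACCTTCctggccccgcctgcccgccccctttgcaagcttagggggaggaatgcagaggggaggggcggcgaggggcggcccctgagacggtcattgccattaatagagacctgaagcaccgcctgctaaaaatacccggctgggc
Hsph1, chr5:149636287-149636586, minus strand: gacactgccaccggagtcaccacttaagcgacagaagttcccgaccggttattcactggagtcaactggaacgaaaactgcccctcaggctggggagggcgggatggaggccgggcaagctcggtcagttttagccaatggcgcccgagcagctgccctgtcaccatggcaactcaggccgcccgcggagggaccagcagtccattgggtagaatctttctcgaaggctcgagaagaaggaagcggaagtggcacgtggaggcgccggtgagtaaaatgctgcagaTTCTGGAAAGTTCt
Hspa5, chr2:34771840-34772139, plus strand: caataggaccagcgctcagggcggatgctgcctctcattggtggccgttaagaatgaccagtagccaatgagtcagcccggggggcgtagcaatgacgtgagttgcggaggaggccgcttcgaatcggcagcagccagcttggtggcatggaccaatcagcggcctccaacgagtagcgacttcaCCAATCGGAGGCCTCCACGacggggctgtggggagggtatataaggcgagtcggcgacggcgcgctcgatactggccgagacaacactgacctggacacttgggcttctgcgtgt
Hsp90b1, chr10:86705395-86705694, minus strand: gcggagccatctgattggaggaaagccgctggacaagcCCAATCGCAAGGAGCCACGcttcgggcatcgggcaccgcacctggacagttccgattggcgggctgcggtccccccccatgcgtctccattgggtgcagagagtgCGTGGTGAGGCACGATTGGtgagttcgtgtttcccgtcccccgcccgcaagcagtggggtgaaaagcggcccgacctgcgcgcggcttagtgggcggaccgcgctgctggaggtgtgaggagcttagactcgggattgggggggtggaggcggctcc
Dnajc3, chr14:118937682-118937981, plus strand: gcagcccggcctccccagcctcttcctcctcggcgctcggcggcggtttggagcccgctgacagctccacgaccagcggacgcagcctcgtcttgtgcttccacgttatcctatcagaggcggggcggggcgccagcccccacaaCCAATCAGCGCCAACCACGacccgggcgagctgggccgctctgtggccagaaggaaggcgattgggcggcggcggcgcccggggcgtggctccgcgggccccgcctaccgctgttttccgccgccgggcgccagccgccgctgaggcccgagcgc

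The motifs were searched on both strands of 32851 promoter windows of the same length. Windows were available for 58 of the 72 members, 73 windows in all, since some genes have more than 1 start site. The long heat shock motif GAANNTTCNNGAA stood in 0.603% of all windows and in 6 of the 73 member windows, which belonged to Hsph1, Hspd1, Hspe1 and Dnajb6. Windows of nearby start sites overlap, so the same site can be counted more than once, as that of Hsph1 was. By gene, the motif stood in 179 of 27025 genes and in 4 of the 58 members with windows. The short form GAANNTTC, which is contained in the long one, stood in 7.86% of all windows and in 15 member windows of 13 genes, among them Hspa1a, Hspb1 and Dnaja1. The ER stress element stood in 0.119% of all windows and in 3 member windows. In Hspa5 the match began 65 bases before the start site, in Dnajc3 105 bases before it, and Hsp90b1 held 2 matches. These matches describe letters in a window and were not tested as binding sites.

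The data could be used for 58 of the 72 genes, each of them well above background in every one of the 6 samples. Of the 14 that were left untested, 11 were well above background on no array, among them the muscle-type small heat shock proteins Hspb2, Hspb3, Hspb7 and Hspb8 and the testis genes Dnajb7 and Dnajb13. Dnajb11, an ER co-chaperone of Hspa5, was also in this group, with a processed intensity of 2.96 to 4.07 over the 6 arrays. Hspa1a and Hspb1 were well above background on 1 array and Dnajc5b on 2. No probe was matched to Hspa1b, the near-identical neighbour of Hspa1a, or to Dnajb5, and the probe of Hspa1a may not separate it from Hspa1b.

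Few chaperone genes passed the test, at a share not far from that of all tested genes. Of the 58 tested genes 3 rose in old samples and none fell, by limma with p-values adjusted over 23266 tested genes at 0.05. Across all tested genes 8.01% passed, 3.98% higher and 4.04% lower in old samples, and among the members 5.17% passed. The rising genes were the J proteins Dnajc2, Dnajb4 and Dnajc6, each 1.60-fold to 1.64-fold higher. The other 55 members had log2 fold changes between -0.39 and 0.40, and 9 of the 58 had an unadjusted p under 0.05, 8 of them higher in old samples, against 27.8% of all tested genes. The groups did not overlap in 22 of the 58 members (37.9%), against 36.0% of all tested genes. All old samples lay above all young ones in 19 of the 58 (32.8%), against 22.9% of all tested genes. They lay below in 3 (5.17%), against 13.1%. The share without overlap was close to that of all tested genes, but more of the members lay above and fewer below. With the mean over all probes of a gene, 5 of the 58 were called, against 7.08% of all genes.

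**Figure D1:**
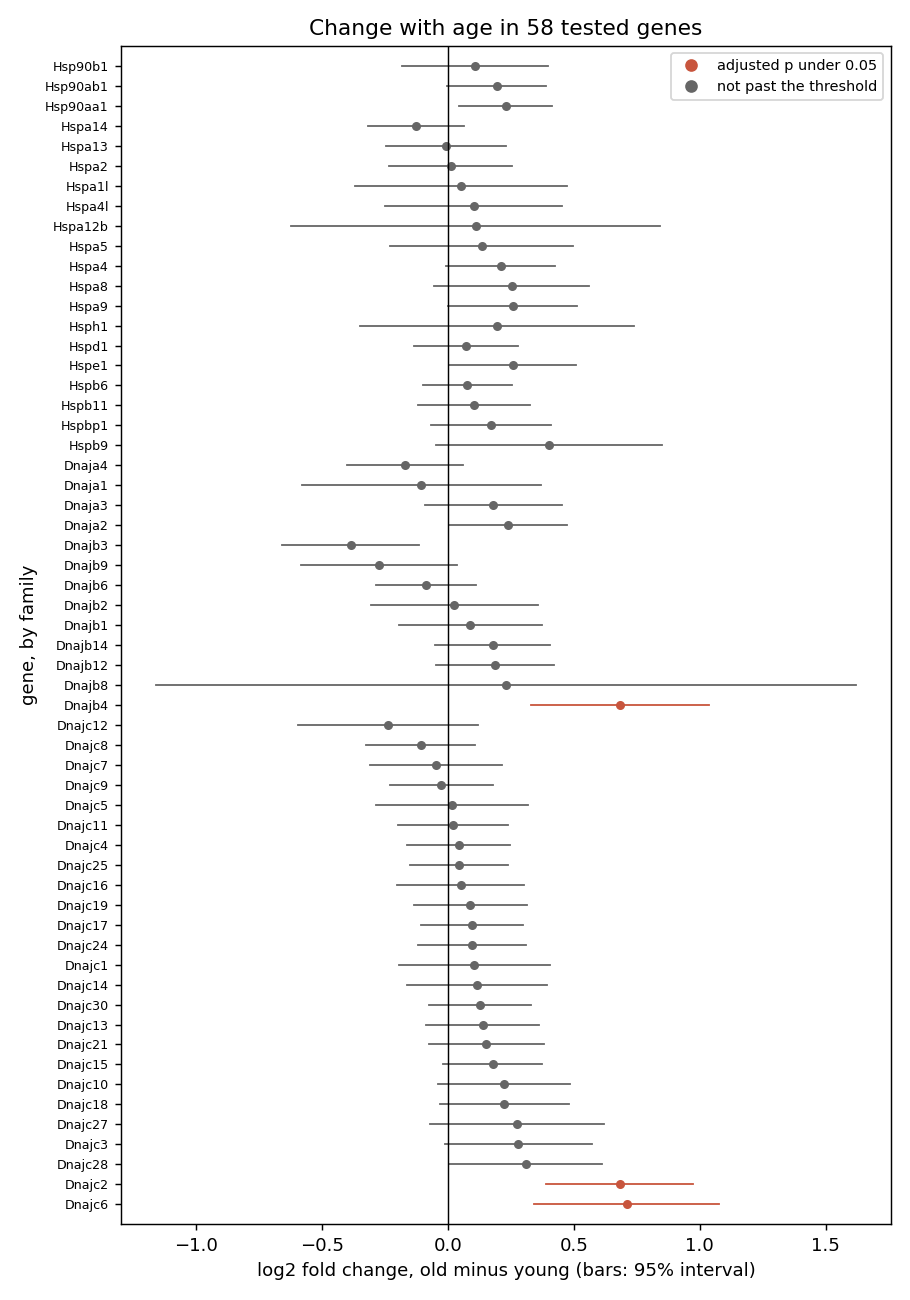
Log2 fold change of old against young samples (x axis) for the 58 tested genes (y axis, ordered by family and then by size); points are estimates from 3 against 3 samples and bars are 95% intervals. The 3 genes past the threshold, Dnajb4, Dnajc2 and Dnajc6, lie between 0.68 and 0.71, and the others lie between -0.39 and 0.40.

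The precision of these estimates bounds what could have been missed by the brightest probes in the main values. The 95% interval of a member's fold change had a median half-width of 0.25 log2 units, with a range of 0.18 to 1.39. For 55 of the 58 members the interval stayed within 1 log2 unit of 0, and for 47 it stayed within 1.5-fold in either direction. A change of more than 2-fold at the brightest probe was thus outside the interval for all but 3 members, the called Dnajb4 and Dnajc6 and the uncalled Dnajb8. Further probes of a gene can lie outside these bounds. A further probe of Dnajc10 differed by 1.20, while the interval of its brightest probe was -0.04 to 0.48.

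Most members had small positive fold changes. The median log2 fold change was 0.11, with quartiles of 0.03 and 0.22, and 47 of the 58 values were above 0. Over all tested genes the median was 0.07, and 60.2% of values were above 0. The size of the shift depended on how arrays were scaled, with a median of 0.05 after cyclic loess, beside -0.005 for all genes, and 0.03 in the deposited log2 values, beside -0.008 for all genes. With normexp background correction the members lay below all genes, at 0.07 beside 0.09, and without a filter on dim probes at 0.12 beside 0.15. With cyclic loess or the deposited values, 37 of the 58 members (63.8%) were above 0, against 49.2% and 48.6% of all tested genes. With normexp the shares were 67.2% of the members and 65.4% of all tested genes. The signs of 45 members were the same in the main values and all 5 alternatives for background and scaling, and 13 turned in at least 1.

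**Figure D2:**
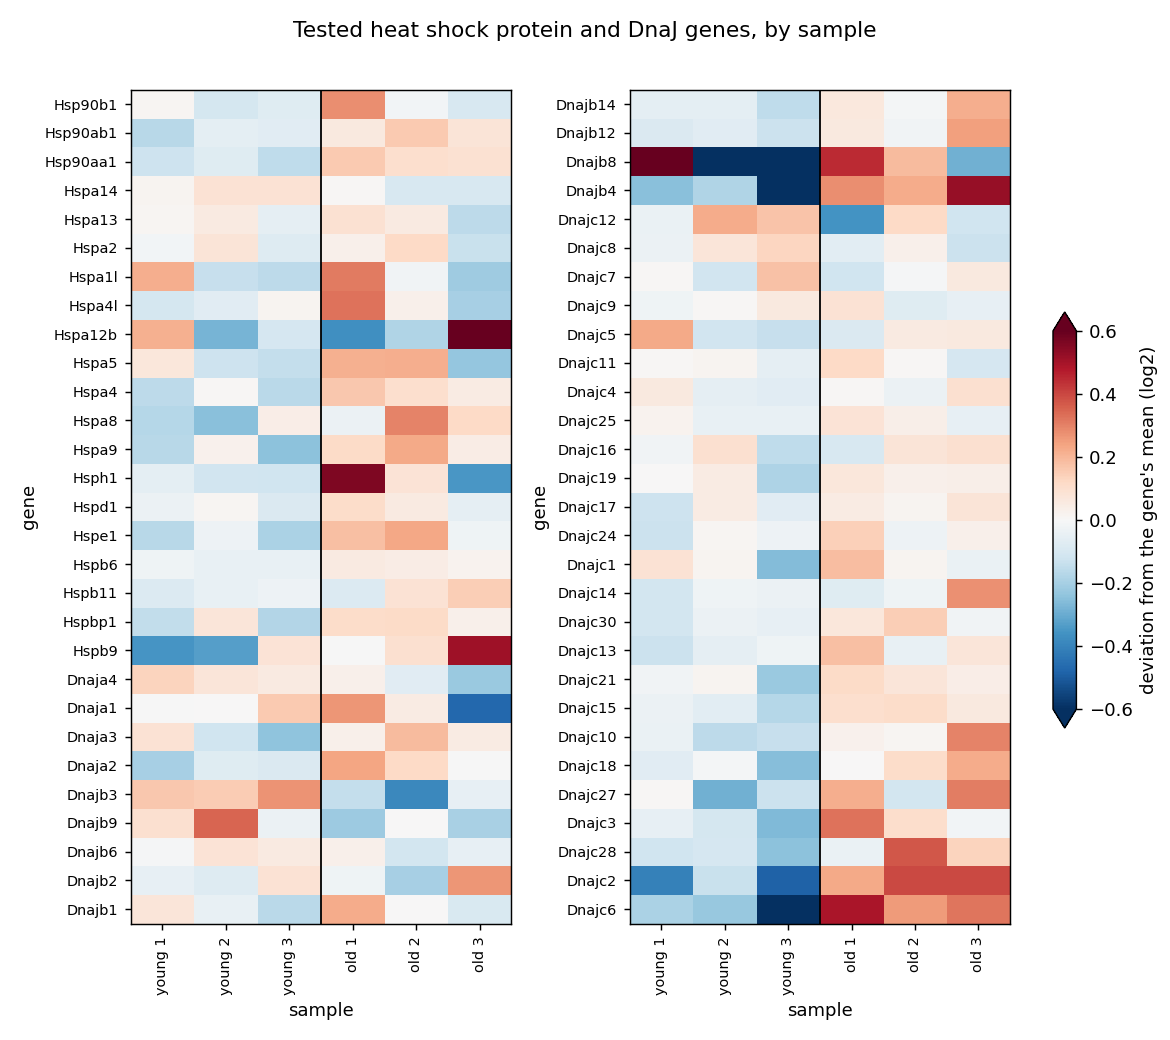
Deviation of each tested gene from its own mean over the 6 samples (colour, log2 units, with colours saturating at 0.6 units either way), with genes in rows by family and samples in columns, and a line between young and old samples. Most rows are pale; Dnajc2, Dnajc6 and Dnajb4 are low in the 3 young and high in the 3 old samples, and Hsph1 and Dnaja1 run from above to below their means among the old samples.

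Dnajc2 (NM_009584) encodes a J protein of the ribosome-associated complex, which acts on nascent chains as they leave the ribosome. Its signals, in the order of replicates 1 to 3 as for all genes below, were 2.32, 2.59 and 2.24 in young samples and 2.95, 3.12 and 3.12 in old samples. Every old sample was above every young one, and the rise was 0.68 ± 0.12 (SE, n = 3 per age), or 1.60-fold, with an adjusted p of 0.0318. Its partner at the ribosome is the Hsp70 protein Hspa14, whose signals were 6.15, 6.22 and 6.22 in young and 6.14, 6.03 and 6.03 in old samples. All old values of Hspa14 lay under the young ones, at -0.13 ± 0.08 (SE), and this did not pass (adjusted p = 0.348).

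Dnajb4 (NM_027287) encodes a cytosolic J protein related to Dnajb1 that is induced by heat in cultured cells. It gave -0.41, -0.34 and -0.75 in young and 0.12, 0.07 and 0.36 in old samples. The groups did not overlap, and the difference was 0.68 ± 0.15 (SE, n = 3 per age), or 1.61-fold, with an adjusted p of 0.0448. Its relative Dnajb1, the classic heat-inducible Hsp40, gave 6.54, 6.42 and 6.31 in young and 6.69, 6.47 and 6.38 in old samples. The ranges of Dnajb1 overlapped (0.09 ± 0.12 SE, adjusted p = 0.663).

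Dnajc6 (NM_001164585) encodes auxilin, which recruits Hsc70 to strip clathrin from endocytic vesicles and is best known from neurons. The values were -1.86, -1.90 and -2.33 in young and -1.18, -1.42 and -1.35 in old samples. Again no old sample fell within the young range, and the rise was 0.71 ± 0.15 (SE, n = 3 per age), or 1.64-fold, with an adjusted p of 0.0445. Gak, the auxilin relative found in most tissues, gave 2.91, 2.85 and 2.78 in young and 2.71, 2.72 and 2.69 in old samples (-0.14 ± 0.08 SE, adjusted p = 0.311).

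These 3 calls lay close to the threshold. Leaving out any 1 of the 6 arrays ended each of them, with adjusted p-values of 0.0505 to 0.0977 for Dnajc2, 0.0798 to 0.124 for Dnajb4 and 0.0654 to 0.119 for Dnajc6, while the rises stayed between 0.56 and 0.79. Dnajc6 also missed the threshold after quantile normalization (adjusted p = 0.0532), after cyclic loess (0.0507) and in the deposited log2 values (0.0599), and Dnajb4 in the deposited values (0.0517), so that 2 calls were left with the first and second of these settings and 1 with the third. Testing all 37163 gene names without a filter on dim probes gave an adjusted p of 0.0617 for each.

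**Figure D3:**
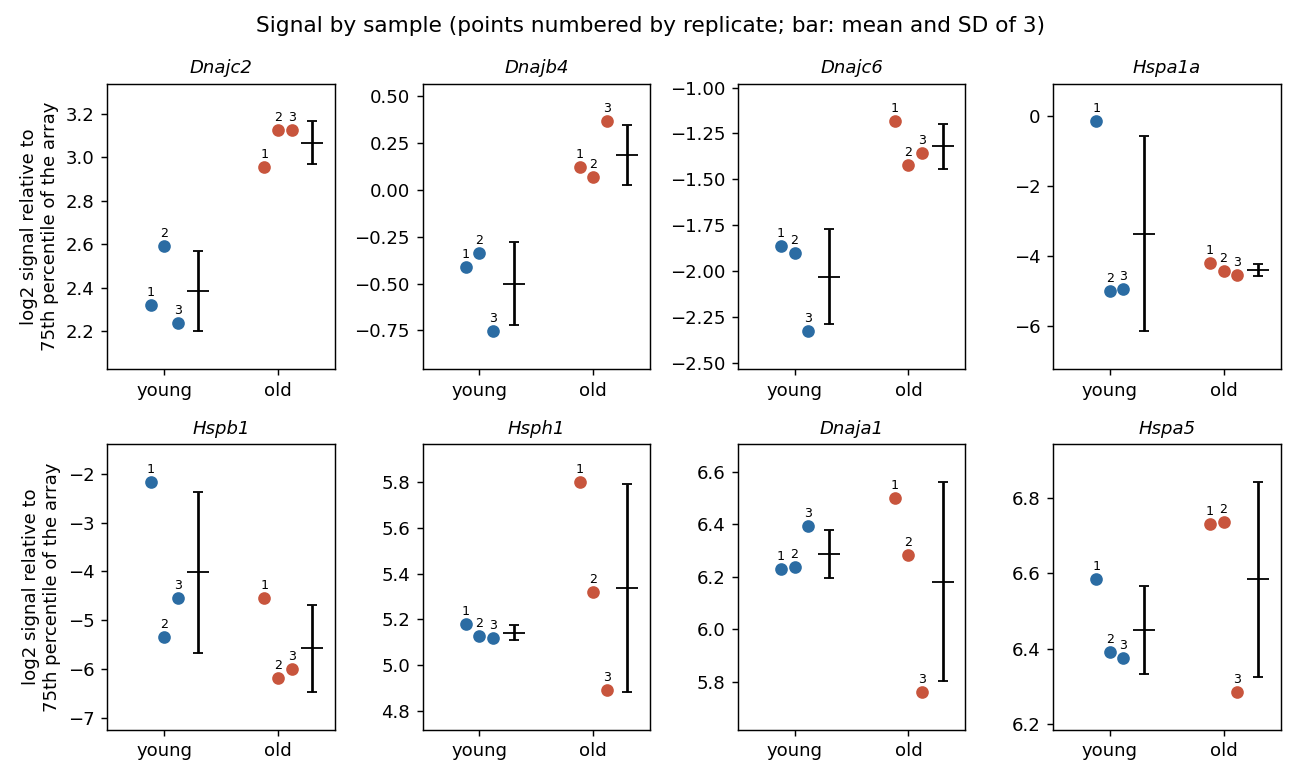
Log2 signal relative to the 75th percentile of the array (y axis, own range in each panel) for 8 genes by age; points are samples numbered by replicate, and the bar beside each group is the mean and SD of 3 samples. Young and old points separate for Dnajc2, Dnajb4 and Dnajc6; for Hspa1a and Hspb1 young replicate 1 stands alone; for Hsph1, Dnaja1 and Hspa5 old replicate 3 is the lowest point.

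The cytosolic Hsp70 and Hsp110 proteins do most of the general folding work of the cell. Of 8 tested genes in this list none passed in either direction, and the median log2 fold change was 0.11. Hspa8, the constitutive Hsc70, gave 9.14, 9.06 and 9.35 in young and 9.27, 9.61 and 9.43 in old samples. The ranges overlapped, and the difference was 0.25 ± 0.13 (SE, adjusted p = 0.252). It was 0.014 in the deposited log2 values, and the further probes of Hspa8 gave -0.30 and 0.11. Hspa4, a nucleotide exchange factor, gave 6.19, 6.36 and 6.19 against 6.52, 6.46 and 6.40, so the old samples were all higher, but the difference of 0.21 ± 0.09 (SE) did not pass (adjusted p = 0.188). The testis-type Hsp70 genes Hspa2 and Hspa1l had differences of 0.01 ± 0.10 and 0.05 ± 0.17 (SE), and Hspa12b, a distant relative described in endothelium, 0.11 ± 0.30.

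Hspa1a was read on 1 array only. Its signals were -0.15, -5.01 and -4.93 in young and -4.21, -4.44 and -4.55 in old samples. Young replicate 1 stood alone, with a processed intensity of 302 against 8.80 to 15.4 on the other 5 arrays, where the probe was not well above background. Its value was at least 13.7-fold above the others, taking for each other array the higher of the gene's own signal and the lowest signal well above background there. The spot carried no outlier flag, there was 1 spot per array, and the authors' deposited log2 value for this sample was 7.92 against 3.40 to 4.17.

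Hspb1 showed the same array apart. It gave -2.18, -5.35 and -4.53 in young and -4.54, -6.17 and -5.99 in old samples, and only young replicate 1 was well above background, at least 3.35-fold above the others. The testis gene Dnajb8, well above background on all 6 arrays, was also highest there, with -1.67 against -3.71 and -3.65 in the other young samples and -2.45, -2.71 and -3.19 in the old ones. The tested heat-inducible members showed no such gap on that array. Hsph1, Dnaja1 and Dnajb1 gave 5.18, 6.23 and 6.54 there, against 5.13, 6.24 and 6.42 in young replicate 2 and 5.12, 6.39 and 6.31 in young replicate 3. Hsph1 and Dnajb1 were thus the highest of the young samples there, by a small margin. The crystallin Cryab was also highest there, at -0.12 against -0.93 and -0.75 in the other young samples. No age comparison can be drawn for Hspa1a or Hspb1, because they were measured in 1 of 3 young and 0 of 3 old samples.

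Hsph1 encodes an inducible Hsp110 protein, and its mean changed less than its spread. The young samples gave 5.18, 5.13 and 5.12 and the old samples 5.80, 5.32 and 4.89. The old samples lay on both sides of the young ones, with an SD of 0.456 against 0.0329. The difference of 0.20 ± 0.22 (SE) did not pass (adjusted p = 0.610). Dnaja1, a farnesylated cytosolic J protein that works with Hsc70, had the same order among the old samples, at 6.50, 6.28 and 5.76 against 6.23, 6.24 and 6.39 in young samples (-0.10 ± 0.19 SE, adjusted p = 0.765). Hspa4l, another Hsp110 protein, gave 3.09, 2.79 and 2.56 in old and 2.66, 2.69 and 2.78 in young samples.

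The order from old replicate 1 down to old replicate 3 was found in 19 of the 58 members, against 4005 of 23266 tested genes, in 5 of 8 tested heat-inducible members and in 10 of 23 Hsp90 co-chaperones. In old replicate 3 the signal was the lowest of the 3 old samples for 27 of the 58 members (46.6%), against 33.1% of all tested genes, and for 6 of 8 tested heat-inducible members and 15 of 23 Hsp90 co-chaperones. The old SD was over 3 times the young SD in 8 of the 58 members (13.8%) against 11.0% of all tested genes. Chordc1, an Hsp90 co-chaperone induced by heat, had the order from old replicate 1 down to old replicate 3 too, at 3.74, 3.48 and 2.99 in old and 3.33, 3.29 and 3.34 in young samples. The immediate early genes and the leukocyte markers had the same order among the old samples, with median deviations of -0.21, -0.57 and -0.68 and of -0.50, -0.65 and -0.82 log2 units from each gene's mean. Array brightness ran the same way, with a 75th percentile of processed intensity of 285, 224 and 206 in old replicates 1 to 3. The part of the immediate early genes, the leukocyte markers or array brightness in the spread of the chaperones was not tested.

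The heat-inducible list held 12 genes, of which 8 were tested (Dnaja1, Dnajb1, Dnajb4, Hsp90aa1, Hspa8, Hspd1, Hspe1 and Hsph1). The counts below leave out Hspa1b, which had no probe, and Hspa1a, Hspb1 and Hspb8, which were too dim to test. Of the 8 tested, 1 rose (Dnajb4) and none fell, beside 3.98% higher and 4.04% lower calls over all tested genes. A fold change above 0 was found in 7 of the 8, beside 60.2% of all tested genes, with a median of 0.21 beside 0.07. With the deposited log2 values the median was 0.04 and 5 of 8 were above 0. Over all tested genes the median of these values was -0.008, and 48.6% were above 0. With normexp background correction 5 of 8 were above 0, beside 65.4% of all tested genes, and the median was 0.14 beside 0.09. The heat shock factors themselves did not pass the test: of 5 tested none was called, by limma. Hsf1 gave 2.79, 2.75 and 2.68 in young and 2.85, 2.76 and 2.61 in old samples, a difference of -0.001 ± 0.094 (SE). Hsf2, a second heat shock factor, gave -0.77, -0.93 and -0.81 against -0.57, -0.39 and -0.47, with all old samples higher (0.36 ± 0.09 SE, adjusted p = 0.0640). Hsf2bp, named for binding Hsf2, was well above background on 3 of the 6 arrays and differed by 0.62 ± 0.16 (SE, adjusted p = 0.0647).

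None of the 3 Hsp90 genes passed the test. Hsp90aa1, the inducible cytosolic form, gave 7.70, 7.75 and 7.67 in young and 7.98, 7.93 and 7.92 in old samples. Every old sample was above every young one, and the difference was 0.23 ± 0.08 (SE; 95% interval 0.05 to 0.41, adjusted p = 0.117). It was 0.06 in the deposited log2 values. Hsp90ab1, the constitutive form, likewise had no overlap, with 8.41, 8.52 and 8.51 against 8.63, 8.73 and 8.65 (0.19 ± 0.08 SE, adjusted p = 0.184), but its difference was -0.01 in the deposited values.

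Among the Hsp90 co-chaperones, the proteins that steer the Hsp90 cycle, 1 of 23 tested genes rose and none fell, beside 3.98% higher calls over all tested genes. The riser was Ptges3, the p23 co-chaperone that holds Hsp90 in its closed state. It gave 6.15, 6.19 and 6.18 in young and 6.47, 6.57 and 6.55 in old samples, a rise of 0.36 ± 0.08 (SE, adjusted p = 0.0454) with no overlap. Leaving out any 1 array ended this call as well (adjusted p = 0.0697 to 0.135), as did median centring (adjusted p = 0.0739) and the deposited log2 values (adjusted p = 0.0896). The call was also lost with normexp background correction (adjusted p = 0.0810), quantile normalization (0.106) and cyclic loess (0.102), where the rise was 0.25, 0.23 and 0.24. Without a filter on dim probes (0.0617) and with the replicate block (0.136) it was lost too. It held with the mean over all probes of a gene (0.0483) and with limma's trend and robust settings (0.00828). The median of the list was 0.09.

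The mitochondrial members fold imported proteins or drive import itself. All 10 tested genes had fold changes above 0, beside 60.2% of all tested genes, and none passed. After cyclic loess 6 of the 10 were above 0, beside 49.2% of all tested genes. With normexp background correction 6 of the 10 were above 0 too, beside 65.4% of all tested genes, and the median was 0.03 beside 0.09. Hspa9, mortalin, which pulls proteins through the inner membrane, gave 5.35, 5.54 and 5.27 in young and 5.63, 5.75 and 5.56 in old samples. The old samples were all higher, by 0.26 ± 0.11 (SE, adjusted p = 0.177). Hspe1, the lid of the chaperonin, gave 7.23, 7.37 and 7.21 against 7.58, 7.63 and 7.37, where the lowest old sample only just exceeded the highest young one (0.26 ± 0.10 SE, adjusted p = 0.172). Hspd1, which shares a promoter region with Hspe1 and forms the chaperonin ring, gave 7.50, 7.55 and 7.45 against 7.65, 7.59 and 7.48. Its ranges overlapped, and its difference of 0.07 ± 0.08 (SE) became -0.09 in the deposited log2 values and -0.07 after cyclic loess. Dnajc28 had the largest difference of the mitochondrial J proteins, with -2.65, -2.63 and -2.77 against -2.57, -2.15 and -2.39 (0.31 ± 0.12 SE, adjusted p = 0.173). Dnajc15 and Dnajc19, J proteins of the import motor, differed by 0.18 and 0.09.

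The ER members assist secreted and membrane proteins, and of 12 tested genes none passed, with a median of 0.11. Hspa5, the ER Hsp70 known as BiP, gave 6.58, 6.39 and 6.37 in young and 6.73, 6.74 and 6.29 in old samples. Hsp90b1, the ER Hsp90, gave 5.68, 5.56 and 5.59 against 5.94, 5.65 and 5.57. Old replicate 3 lay below the young range for Hspa5 and within it for Hsp90b1, so the ranges of both overlapped, and the differences were 0.13 ± 0.15 and 0.11 ± 0.12 (SE). Dnajc3, an inhibitor of the stress kinase Eif2ak2 and a co-chaperone of Hspa5, gave 2.42, 2.36 and 2.20 against 2.79, 2.57 and 2.45, all old samples higher (0.28 ± 0.12 SE, adjusted p = 0.193). Dnajb9, a J protein that aids degradation of misfolded ER proteins, was on the lower side, with 0.11, 0.36 and -0.03 against -0.21, 0.01 and -0.19 (-0.27 ± 0.13 SE, adjusted p = 0.225).

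None of 20 tested genes of the wider unfolded protein response of the ER passed by limma, 10 lay above 0 and 10 below, and the median was -0.01. After cyclic loess and in the deposited log2 values 7 of the 20 lay above 0, with a median of -0.08. Of all tested genes 60.2% lay above 0 in the main values, and 49.2% and 48.6% in those settings. Pdia4, an ER disulfide isomerase, came closest, with 0.54, 0.64 and 0.64 in young and 1.12, 0.98 and 0.91 in old samples (0.40 ± 0.09 SE, adjusted p = 0.0516). Eif2ak3, the ER stress kinase PERK, lay the other way, with 1.03, 0.98 and 1.02 against 0.72, 0.77 and 0.70 (-0.28 ± 0.07 SE, adjusted p = 0.0729). In neither gene did the groups overlap. Xbp1, a transcription factor of this response, gave 4.27, 4.41 and 4.54 in young and 4.65, 4.42 and 3.72 in old samples, again lowest in old replicate 3. Hyou1, the ER Hsp110 protein, was at -1.77, -1.52 and -1.81 against -1.06, -1.17 and -1.39 (0.49 ± 0.13 SE, adjusted p = 0.0697).

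The small heat shock proteins were mostly out of reach, with 3 of 8 genes on the list tested and none called. The 3 include Hspb11, the intraflagellar transport subunit that the list holds by its symbol. Hspb6, known as Hsp20, gave 1.60, 1.58 and 1.58 in young and 1.68, 1.67 and 1.65 in old samples (0.08 ± 0.07 SE). Hspb9, a small heat shock protein described in testis, had the largest difference of the members that did not pass, with -1.05, -1.03 and -0.62 against -0.70, -0.60 and -0.19. Its ranges overlapped, and the difference was 0.40 ± 0.18 (SE, adjusted p = 0.218).

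The remaining J proteins of the A and B classes carry clients to Hsp70 in the cytosol, and none of those below passed. Dnajb3, a gene described in testis, had the largest negative difference of all members, with 1.63, 1.62 and 1.73 in young and 1.32, 1.08 and 1.42 in old samples. The groups did not overlap, and the difference was -0.39 ± 0.11 (SE, adjusted p = 0.0895). It passed in 2 of the alternatives, with normexp background correction (adjusted p = 0.0347) and with limma's trend and robust settings (adjusted p = 0.0444). Dnaja4, a relative of Dnaja1, gave 2.96, 2.90 and 2.88 against 2.86, 2.76 and 2.60, all old samples lower (-0.17 ± 0.09 SE, adjusted p = 0.294). Dnaja2 gave 4.01, 4.13 and 4.12 against 4.44, 4.33 and 4.20 (0.24 ± 0.10 SE, adjusted p = 0.175). A second probe of Dnaja2 had the opposite sign (-0.10), with all old samples lower. Dnajb6, which restrains aggregation of polyglutamine proteins, differed by -0.09 ± 0.08 (SE). Its further probes differed by -0.05, 0.04 and 0.27, none past the threshold.

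The C class of J proteins is bound together by the J domain alone and serves many processes. Of 25 tested genes 2 rose (Dnajc2 and Dnajc6), none fell, beside 3.98% higher and 4.04% lower calls over all tested genes, and 21 had differences above 0, beside 60.2% of all tested genes. After cyclic loess 15 of the 25 were above 0, and 17 in the deposited log2 values, beside 49.2% and 48.6% of all tested genes. With normexp background correction 17 of the 25 were above 0, beside 65.4% of all tested genes, and the median was 0.07 beside 0.09. Dnajc5, the cysteine string protein of secretory vesicles, gave 8.41, 8.07 and 8.04 in young and 8.10, 8.23 and 8.24 in old samples, with no separation (0.02 ± 0.12 SE). Dnajc27, which joins a J domain to a GTPase of the Ras type, gave -2.12, -2.42 and -2.26 against -1.91, -2.24 and -1.82 (0.28 ± 0.14 SE, adjusted p = 0.264). Dnajc12, a partner of the aromatic amino acid hydroxylases, gave 0.02, 0.29 and 0.23 against -0.30, 0.18 and -0.06 (-0.24 ± 0.15 SE, adjusted p = 0.341). The ranges of both genes overlapped. Dnajc8, a spliceosome component, and Dnajc9, a histone chaperone, differed by -0.11 ± 0.09 and -0.03 ± 0.08 (SE).

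Several genes had further probes, and these did not always give the same answer. Of 26 further probes of 19 members that were tested, 15 had the sign of the brightest probe and 11 the opposite sign. The second probe of Dnajc10, an ER disulfide reductase with a J domain, gave 0.28, 0.20 and 0.01 in young and 1.26, 1.18 and 1.67 in old samples. It rose by 1.20 ± 0.16 (SE, adjusted p = 0.0239 over 31286 probes, 7.80% of which passed), whereas the brightest probe of Dnajc10 differed by 0.22 ± 0.11. Hspa13, an Hsp70-like protein of microsomes, had a second probe at -3.51, -3.35 and -3.19 against -2.79, -2.46 and -2.09, a rise of 0.90 ± 0.19 (SE, adjusted p = 0.0467), and a brightest probe at -0.01 ± 0.10. The probes of Dnajb9 had opposite signs, the second differing by 0.64 ± 0.15 (SE, adjusted p = 0.0520) and the brightest by -0.27. The further probes of Hspe1, Hspa4 and Hsph1 had the sign of the brightest one. These genes were picked after their values were seen, and which transcripts each probe reads was not tested.

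**Figure D4:**
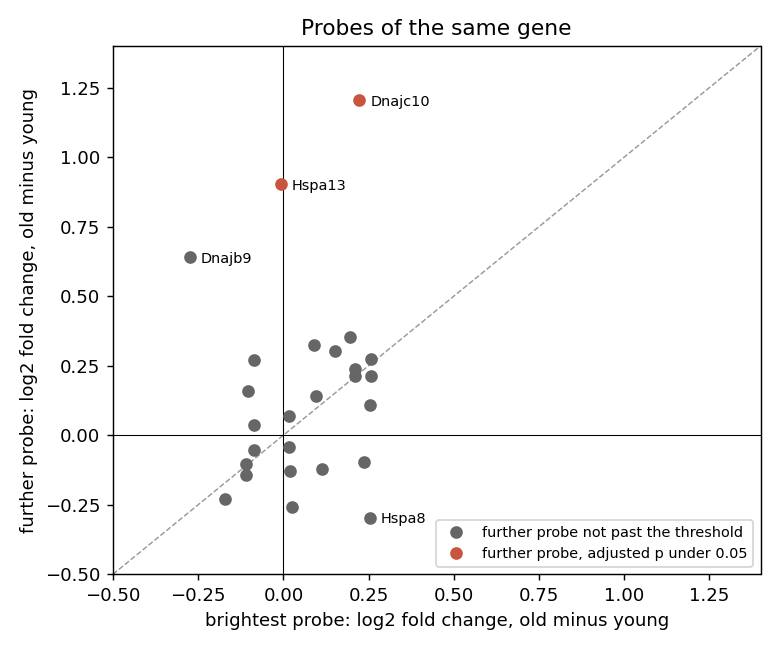
Log2 fold change of old against young samples for the brightest probe of a gene (x axis) and each further tested probe of the same gene (y axis), 26 probes of 19 genes; the dashed line marks equal values and the gene is named where the probes differ by more than 0.5. Dnajc10 (1.20) and Hspa13 (0.90) have a further probe past the threshold above a brightest probe near 0.

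None of the other folding lists held a call. Of 10 Bag proteins and other nucleotide exchange factors none passed (median 0.12), the closest after Hyou1 being Sil1, the exchange factor of Hspa5, at 4.35, 4.27 and 3.94 against 4.45, 4.58 and 4.64 (0.37 ± 0.13 SE, adjusted p = 0.138). Of 15 subunits of the cytosolic chaperonin and prefoldin none passed (median 0.12). Pfdn1, a prefoldin subunit, gave 3.69, 3.78 and 3.72 against 4.08, 4.12 and 3.99 (0.33 ± 0.08 SE, adjusted p = 0.0620), and Cct7, a chaperonin subunit, differed by 0.28 ± 0.09 (SE, adjusted p = 0.105). Of 12 mitochondrial chaperones, cofactors and proteases that are not members none passed (median 0.04), with Clpp and Clpb at 0.23 ± 0.10 and 0.22 ± 0.10 (SE). Of 5 other J-domain and crystallin genes none passed (median 0.02), among them Cryaa, the lens crystallin, at 0.22 ± 0.18 (SE).

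The immediate early genes, which like the heat shock genes respond within minutes to handling and stress, were measured in the same samples. Of 18 tested, 7 fell in old samples and none rose, beside 4.04% lower calls over all tested genes, and the list's median was -1.02. Fos fell from 2.44, 2.75 and 2.87 in young to 1.22, 0.99 and 0.60 in old samples (-1.75 ± 0.19 SE, adjusted p = 0.0208). Fosl2 (-2.29), Zfp36 (-1.81), Klf2 (-1.59), Nr4a1 (-1.43), Klf4 (-1.21) and Junb (-1.12) also fell, with no overlap between the ages. The 7 calls became 0 without old replicate 2, old replicate 3 or young replicate 2 and 1 without young replicate 3, and 5 and 6 without young replicate 1 and old replicate 1. Over the same arrays 1 of 8 tested heat-inducible members passed, Dnajb4, in the other direction.

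Marker genes of blood cells moved with age in the same arrays. Of 10 leukocyte markers 7 were lower in old samples and none higher (median -1.40). For this and the other lists, the shares over all tested genes were 4.04% lower and 3.98% higher. The summed signal of the leukocyte markers, in multiples of the 75th percentile of the array, was 93.9 to 163 in young and 52.7 to 58.9 in old samples. The neutrophil list had 4 of 13 lower (summed signal 1841 to 2893 against 1183 to 1529), the monocyte and macrophage list 5 of 7 and the B cell list 6 of 11, with none higher in these lists. The erythroid list had no call among 10 genes (median -0.02, summed signal 680 to 907 against 754 to 842). Osteoblast markers had 3 of 7 lower and 1 higher, the mesenchymal list 2 of 8 lower and 1 higher (Lepr), plasma cells 1 of 6 lower, T cells 2 of 6 higher, endothelium 1 of 3 higher (Kdr), testis germ cells 1 of 3 lower (Prm1) and muscle none of 1. In these bulk samples fewer cells of a type and less RNA per cell cannot be told apart, and the part of these shifts in the chaperone values was not tested.

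**Figure D5:**
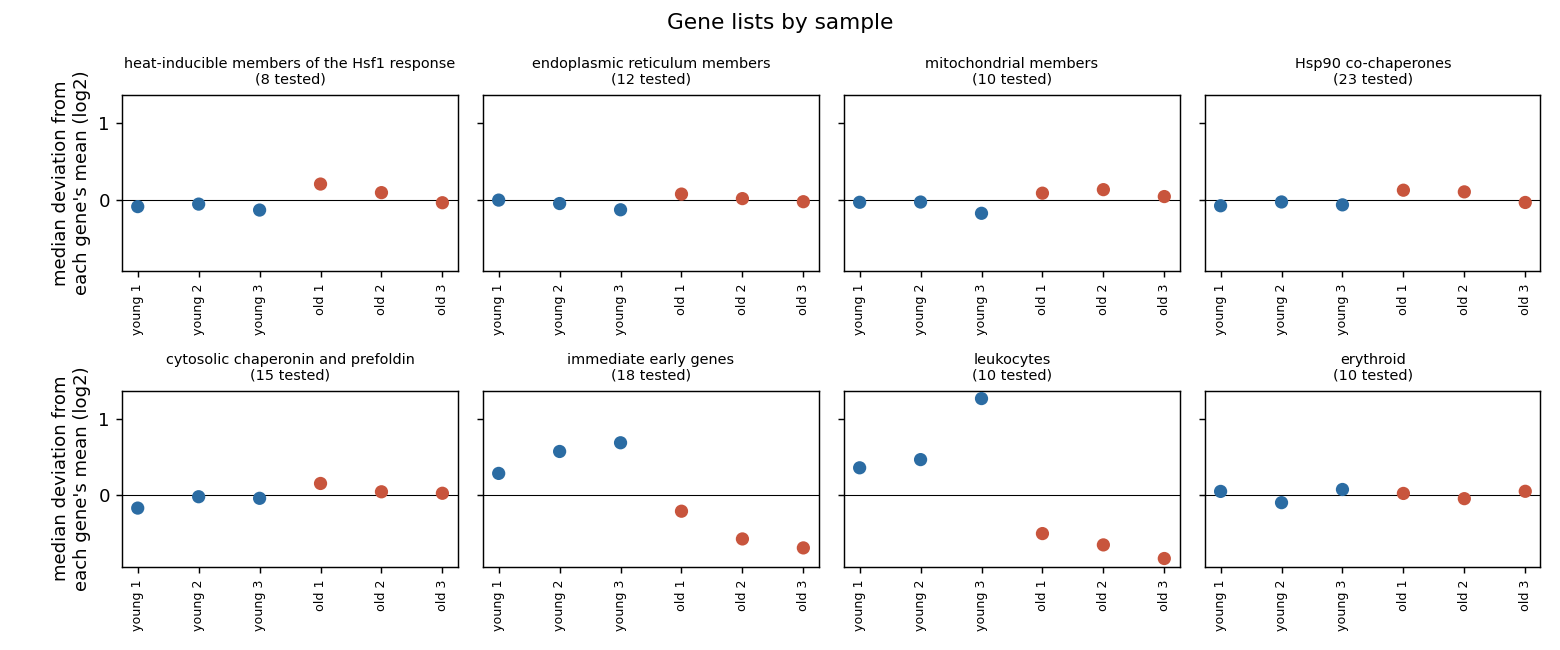
Median deviation of the tested genes of 8 lists from each gene's own mean (y axis, log2 units, same scale in all panels) in each of the 6 samples (x axis; young in blue, old in red). The chaperone lists stay within 0.21 of 0 in every sample, while the immediate early genes (young 0.29 to 0.69, old -0.68 to -0.21) and leukocyte markers (young 0.36 to 1.26, old -0.82 to -0.50) separate by age.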

How the data were processed

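The authors deposited the spot intensities of each array as scanner output. The software, per the file headers, was Agilent Feature Extraction 10.7.3.1, the probes were annotated on mm9, and the processed intensity is background-subtracted and not scaled between arrays. Version 10.5.1.1 stands in the submitters' processing notes. The authors also deposited log2 values for 52095 of the 55681 probes, whose columns correlated at r = 0.9986 to 0.9995 with the log2 processed intensity of the same arrays. How they were scaled is not given in the sources. Their medians (young 1 to 3, then old 1 to 3) were 4.91, 4.92, 4.95, 4.94, 4.92 and 4.87.

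Control spots and outlier spots were dropped, spots of a probe averaged, and each array's 75th percentile subtracted on the log2 scale. Accessions were matched without version to RefSeq symbols of GRCm38.p6, which named 26413 probes (47.4%). A gene was tested when 3 or more arrays showed its brightest probe well above background. Ages were compared with limma 3.58.1 (lmFit, eBayes; R 4.3.3), with Benjamini-Hochberg adjustment at 0.05. Tables were handled with Python 3.11.15 and pandas 2.3.3. The limma step alone was tested on simulated data. The files hold no mean spot signal, so the normexp alternative (offset 50) used the median signal and median background. The small number of arrays limits the precision.

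Replicate numbers in the labels did not pair the samples: same-numbered samples had deviations from their group means that correlated at -0.03, 0.02 and -0.009 across genes.

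The members, lists and tests were chosen with earlier results of these data known. The rule for genes named with values took every member past the threshold, the 8 largest rises and 8 largest falls, 17 core chaperones whatever their result, the 5 members with the highest mean, and in each pathway list the genes past the threshold or else the 2 with the smallest p. Other genes were named for their role or after their values were seen. Alternatives covered background correction, scaling, the dim-probe filter, the choice of probe, the variance model, the replicate block and each array left out.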

Additional observations from a re-analysis of the deposited data

How the results depend on the processing

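Of 432 comparisons of the 27 named members with 16 alternatives, 401 kept their side of the threshold. A call was lost in 28 and gained in 3, and no called value changed sign. All losses were in the 3 called genes: Dnajc2 stayed called in 8 of the 16 alternatives, Dnajb4 in 7 and Dnajc6 in 5. Outside the 27, Dnajc10 and Hspa13 gained a call with the mean over all probes of a gene. Among all 58 tested members, 24 uncalled ones turned sign in at least 1 alternative. The 3 calls among the chaperone genes became 1 (Dnajc2) with the deposited log2 values and 0 without a filter on dim probes or with each array left out in turn (0 to 0; 8 at an unadjusted p under 0.05 without the filter and 5 to 10 with an array left out). They numbered 2 after cyclic loess, 2 after quantile normalization and 4 with normexp, and became 5 with limma's trend and robust settings and 5 with the mean over all probes of a gene. Their median of 0.11 was 0.046 after cyclic loess, 0.033 in the deposited values, 0.073 with normexp, 0.073 after quantile normalization and 0.08 to 0.14 with an array left out. Over all tested genes 1864 calls became 3264 with trend and robust settings, 2911 with normexp and 0 without the filter (11662 unadjusted). They numbered 1 to 1154 with an array left out, lowest without old replicate 2 and highest without old replicate 1. Without young replicates 1, 2 and 3 they were 768, 63 and 321, and without old replicate 3 they were 5. The share of calls that were higher was 49.6%, and it was 39.0% in the deposited values, 62.0% with normexp and 41.9% after cyclic loess. With replicate number as a block, 0 chaperone genes and 0 genes overall passed (8 and 5554 at an unadjusted p under 0.05), although the numbers did not pair the samples. Signal over background left 14 members untested, 11 of them well above background on no array, young or old.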
